A study of Homo sapiens with 32 samples.

Results

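The genes described here are 8 kinases that control how fast glucose is used: the hexokinases HK1 and HK2, the phosphofructokinases PFKL, PFKM and PFKP, the bifunctional enzymes PFKFB3 and PFKFB4, and the pyruvate dehydrogenase kinase PDK1. They were chosen by name, with earlier results of these data known. Each was read from the transcript cluster (the array's set of probes for a gene) that carried its symbol alone, and each of the 8 had exactly 1 such cluster. They are 8 of 14207 genes with a cluster of a single symbol, and all 8 lay above background.

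The samples were 7 HapMap B-lymphoblastoid cell lines (B cells grown as permanent lines), each line from 1 donor. Every culture was grown with 200 µM 4-thiouridine (4sU) for 2 h. This nucleoside is built into RNA as it is made, so that the labelled (nascent) RNA could be separated from the total RNA of the same culture, and both went onto human exon arrays, 16 of nascent and 16 of total RNA. There were 3 independent cultures each of GM12813, GM10835 and GM07029 and a single culture of GM07019, of GM12812, of GM12814 and of GM12815. Both fractions of the GM12813 cultures were hybridized a second time as technical duplicates. No culture without 4sU was analysed here, so the 8 genes were not compared between labelled and unlabelled cells. The series was set up to follow mRNA stability through the nascent/total ratio, in all lines and between them.

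Hexokinases add a phosphate to glucose and hold it in the cell. Phosphofructokinase then adds the second phosphate, the step that commits the sugar to glycolysis, and PFKFB enzymes make and remove fructose 2,6-bisphosphate, its strongest activator. PDK1 phosphorylates and switches off the pyruvate dehydrogenase complex, which keeps pyruvate out of the mitochondrial cycle and leaves more for lactate. B cells raise glucose use when they are driven to divide, and lymphoblastoid lines divide without pause. HK2, PFKFB3, PFKFB4 and PDK1 are textbook targets of the hypoxia inducible factor, and several of these genes are also known targets of MYC.

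The promoter letters that these factors are known to read, ACGTG for the hypoxia inducible factor and the E-box CACGTG for MYC, are shown for the genes that had them. RefSeq promoter windows of GRCh38.p14, each running from 250 bases before to 50 bases after a start, were searched on both strands, and an E-box also counts as an ACGTG. All 8 genes were matched, with 26 windows. ACGTG was found in 7 of the 26 windows (26.9%), in 5 of the 8 genes, against 21.4% of all 35116 windows. The E-box was found in 2 of the 26 (7.69%), in HK2 and PFKFB3, against 7.26% of all windows. The windows of HK1, PFKL and PFKFB4 held neither set of letters. Some windows of a gene overlap, so that the single PFKM match counted in 2 windows. A match is a description of these letters, not a site shown to be bound. One stretch of 29 bases is given for each gene with a match, and 2 for HK2, all on the plus strand, with the matched letters in capitals (CACGT is ACGTG read on the other strand):
HK2, chr2:74834965-74834993: attgctgcgccCACGTGggagggagcccc
HK2, chr2:74835010-74835038: tccggcgagagCACGTGgagagaatcgtg
PFKM, chr12:48105347-48105375: agatccagagatCACGTtagggtacacca
PFKP, chr10:3069038-3069066: ccacgagcgcctACGTGatgcccggcccg
PFKFB3, chr10:6202813-6202841: accctcctcccCACGTGgaagggggctgg
PDK1, chr2:172556061-172556089: cctgctgcccgcCACGTccctCACGTacc

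Arrays of the 2 fractions sat at different levels, with medians of 7.58 to 7.92 (nascent) and 6.74 to 6.95 (total) on the log2 intensity scale. The ratio of a culture, its nascent minus its total log2 value, was therefore centred on the median of 14167 clusters above the background of 6.40. A positive ratio means a larger nascent share than that of the median cluster, and it says nothing of an absolute rate. No half-life was computed, and the ratio was not related to transcript length or uridine number. Technical duplicates of the 8 genes differed by a median of 0.0623 (nascent) and 0.0935 (total) log2 units over 24 pairs each, and at most by 0.276 (PDK1, nascent) and 0.250 (PFKFB4, total). Among nascent arrays that of GM12815 correlated least with other lines (mean 0.919 across clusters), and among total arrays that of GM10835 replicate 2 (mean 0.916). The first total array of GM12813 replicate 3 correlated least with its own line (mean 0.960). In total RNA 6 of 7 B cell markers on the array lay above background (median 9.58), against 2 of 7 markers of T and NK cells (CD7 and NKG7), 0 of 5 of monocytes and granulocytes, 3 of 7 of fibroblasts and epithelia (COL1A1, KRT8 and KRT18) and 1 of 3 of erythroid and muscle cells (DES). The median level of the B cell markers ran from 9.42 to 9.92 over the 7 lines. RNA came from whole cultures, so that fewer cells with a transcript and less of it per cell cannot be told apart.

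The first comparison asked how much of each kinase's RNA was newly made, relative to other transcripts, over the 7 lines. Both hexokinases were higher than the median cluster, and the phosphofructokinases PFKL, PFKM and PFKP, the bifunctional enzyme PFKFB4 and PDK1 were lower, each by more than 1 log2 unit. PFKFB3 alone did not pass the test. So 2 of the 8 kinases were higher and 5 lower, where 31.7% of all 14167 clusters were higher and 31.7% lower. Of all clusters, 5.93% were called lower by at least 1 log2 unit, as those 5 kinases were, and 9.18% higher by as much, as HK1 was. The median ratio of the 8 was -1.10, against -0.01 over all clusters.

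**Figure D1:**
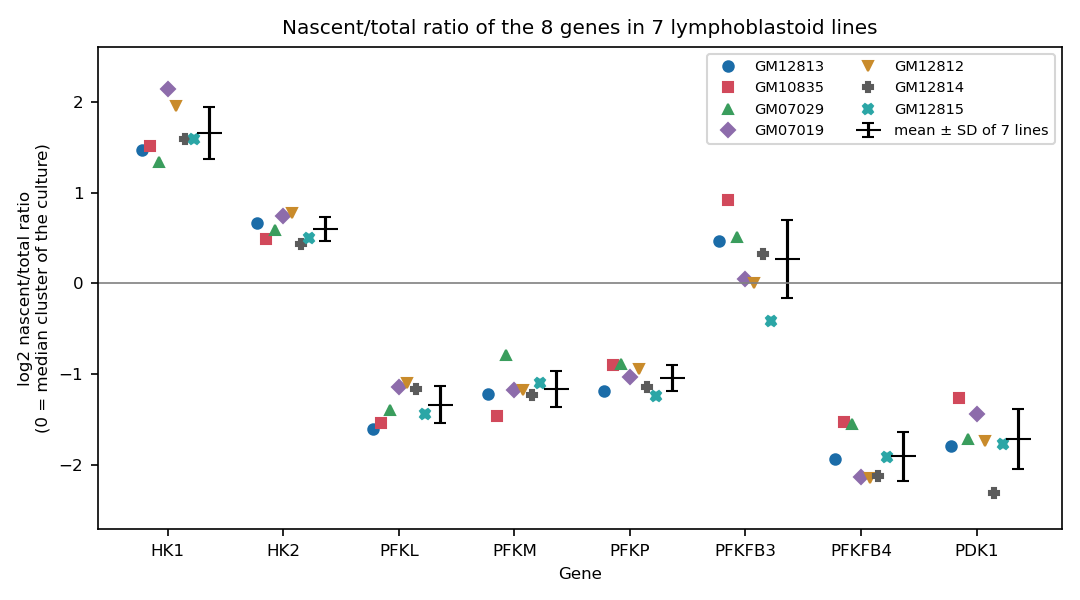
The centred log2 nascent/total ratio of each of the 8 genes (vertical axis, 0 is the median cluster of the culture) in the 7 lines, with 1 symbol per line and bars for the mean and SD. HK1 and HK2 lie above 0 in 7 lines, PFKL, PFKM, PFKP, PFKFB4 and PDK1 below it in 7 lines, and PFKFB3 spans it, from -0.41 in GM12815 to 0.92 in GM10835. The HK1 points of GM07019, GM12812 and GM12815 rest on total RNA below background.

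HK1, on chromosome 10, is the hexokinase that most tissues express at all times. Its nascent RNA had a lowest, median and highest line mean of 8.50, 8.96 and 9.25 on the log2 intensity scale, against 6.21, 6.49 and 6.91 in its total RNA. The nascent level was the higher one in all 13 cultures. Nascent arrays sat higher as a whole, and without centring 11639 of the 14167 clusters were called higher in nascent RNA. The centred log2 ratio of HK1 was 1.47 in GM12813, 1.51 in GM10835, 1.34 in GM07029, 2.14 in GM07019, 1.95 in GM12812 and 1.59 in both GM12814 and GM12815. The mean was 1.65 ± 0.28 (SD, n = 7 lines; limma, adjusted p = 7.15e-07). The total RNA lay below background in 3 of 13 cultures, those of GM07019, GM12812 and GM12815, so that the ratio of these 3 lines is a bound. In the other 4 lines it ran from 1.34 to 1.59. With total RNA raised to the background, the mean over 7 lines was at least 1.59 (limma, adjusted p = 5.83e-07), or at least 3.02-fold above the median cluster. In total RNA the 3 lines with replicate cultures were the 3 highest.

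HK2, on chromosome 2, is the inducible hexokinase of muscle, fat and dividing cells. Nascent HK2 RNA ran from 9.29 (GM12815) over a median of 9.43 to 9.78 (GM10835), against total RNA from 7.77 (GM12812) over 8.14 to 8.47 (GM10835). The ratio lay in a narrow band, from 0.44 in GM12814 to 0.78 in GM12812. Its mean was 0.60 ± 0.13 (SD, n = 7 lines; limma, adjusted p = 3.91e-05), with 82.3% of clusters lower. The ratio of HK1 exceeded that of HK2 in 7 of 7 lines (exact sign-flip permutation test, two-sided, p = 0.0156, the smallest that 7 lines allow, adjusted p = 0.0260 over 5 pairs of isozymes). The difference was 0.75 to 1.15 log2 units in the 4 lines with HK1 total RNA above background. Over 7 lines it averaged at least 0.99, with HK1 total RNA raised to the background in the other 3.

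Of the phosphofructokinases, PFKL is named for liver, PFKM for muscle and PFKP for platelets, and their subunits join into tetramers in most cells. PFKL, on chromosome 21, had nascent levels of 8.70, 9.29 and 9.49 (lowest, median and highest line), against total levels of 9.48, 9.76 and 10.07. Here the order of the fractions was the opposite of that of the hexokinases, with total RNA above nascent RNA in all 13 cultures. Without centring, 762 of the 14167 clusters were called lower in nascent than in total RNA. The mean centred ratio of PFKL was -1.33 ± 0.20 (SD, n = 7 lines; limma, adjusted p = 6.19e-07), from -1.59 in GM12813 to -1.09 in GM12812, and 2.29% of clusters were lower still.

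PFKM, on chromosome 12, ran from 9.46 (GM12814) to 9.76 (GM07019) with a median of 9.62 in nascent RNA, against 9.78 (GM07029), 9.92 and 10.32 (GM10835) in total RNA. The mean ratio was -1.16 ± 0.20 (SD, n = 7 lines; limma, adjusted p = 9.85e-07). GM10835 had the lowest ratio at -1.45 and GM07029 the highest at -0.79, and the other 5 lines lay between -1.23 and -1.10. A second cluster of the array carries the symbols of SENP1 and PFKM together and was not used for the gene. It also had a negative mean ratio, -0.87 ± 0.39 (SD, n = 7 lines; limma, adjusted p = 9.30e-05), but its order of lines differed: -0.77 in GM12813, -0.19 in GM10835 and -0.58 in GM07029.

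PFKP, on chromosome 10, had nascent levels from 9.25 (GM12815) over 9.73 to 10.17 (GM10835), against total levels from 9.58 (GM07029) over 10.07 to 10.24 (GM10835). Its mean ratio of -1.04 ± 0.14 (SD, n = 7 lines; limma, adjusted p = 9.07e-07) varied little, from -1.24 in GM12815 to -0.89 in GM07029. Among the 3 subunits, PFKL had a lower ratio than PFKP in 7 of 7 lines, by -0.29 log2 units (95% interval -0.50 to -0.08; exact sign-flip permutation p = 0.0156, adjusted p = 0.0260 over 5 pairs). PFKL minus PFKM averaged -0.18 (-0.42 to 0.07, exact permutation p = 0.203, adjusted 0.254) and PFKP minus PFKM 0.11 (-0.10 to 0.33, exact permutation p = 0.266, adjusted 0.266), and neither pair passed. Differences of up to 0.42 and 0.33 log2 units lie within those intervals.

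PFKFB3 and PFKFB4 belong to the enzymes that make and break fructose 2,6-bisphosphate; in PFKFB3 the kinase far outweighs the phosphatase. PFKFB3, on chromosome 10, had nascent levels of 8.94 in GM12813, 10.08 in GM10835, 8.62 in GM07029, 9.16 in GM07019, 9.05 in GM12812, 9.26 in GM12814 and 7.64 in GM12815. Its total levels in the same lines were 7.67, 8.33, 7.34, 8.44, 8.23, 8.05 and 7.40. GM10835 stood above every other line in nascent RNA and GM12815 below, a span of more than 2 log2 units, while total RNA spanned 1.10.

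The PFKFB3 ratio was 0.47 in GM12813, 0.92 in GM10835, 0.52 in GM07029, 0.05 in GM07019, 0.01 in GM12812, 0.33 in GM12814 and -0.41 in GM12815. It was positive in 6 of 7 lines, with a mean of 0.27 ± 0.43 (SD), the widest spread of the 8 genes, and did not pass (limma, adjusted p = 0.102). Without GM12815, the line with the negative ratio, the mean was 0.38 and passed (limma, n = 6 lines, adjusted p = 0.0172). It did not pass when any other single line was left out (adjusted p up to 0.262). With all 13 cultures in the fit and the line as a random block the mean was 0.32 (limma, adjusted p = 0.0275). In 7 of 9 alternatives of the processing PFKFB3 did not pass (limma, adjusted p up to 0.165).

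PFKFB4, on chromosome 3, had the lowest ratio of the 8 genes. Its nascent levels were 8.40 in GM12813, 8.72 in GM10835, 7.85 in GM07029, 7.88 in GM07019, 8.71 in GM12812, 8.60 in GM12814 and 7.62 in GM12815. Its total levels in the same lines were 9.53, 9.41, 8.63, 9.33, 10.03, 9.84 and 8.88, higher than the nascent level in every culture. The ratio lay between -2.14 (GM12812) and -1.52 (GM10835), with a mean of -1.90 ± 0.27 (SD, n = 7 lines; limma, adjusted p = 4.83e-07), 3.73-fold below the median cluster. Of all clusters, 0.318% were lower. The ratio of PFKFB3 exceeded that of PFKFB4 in 7 of 7 lines, by 2.17 log2 units (95% interval 1.86 to 2.48; exact sign-flip permutation p = 0.0156, adjusted p = 0.0260 over 5 pairs).

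PDK1, on chromosome 2, had nascent levels of 9.23 in GM12813, 9.86 in GM10835, 9.12 in GM07029, 9.39 in GM07019, 9.63 in GM12812, 9.10 in GM12814 and 8.85 in GM12815. Its total levels were much closer together, at 10.22, 10.28, 10.06, 10.15, 10.55, 10.53 and 9.97 in the same lines. Total RNA exceeded nascent RNA in all 13 cultures. The mean ratio was -1.71 ± 0.33 (SD, n = 7 lines; limma, adjusted p = 7.05e-07), and 0.678% of clusters were lower. GM12814 had the lowest ratio, -2.31, and GM10835 the highest, -1.26.

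**Figure D2:**
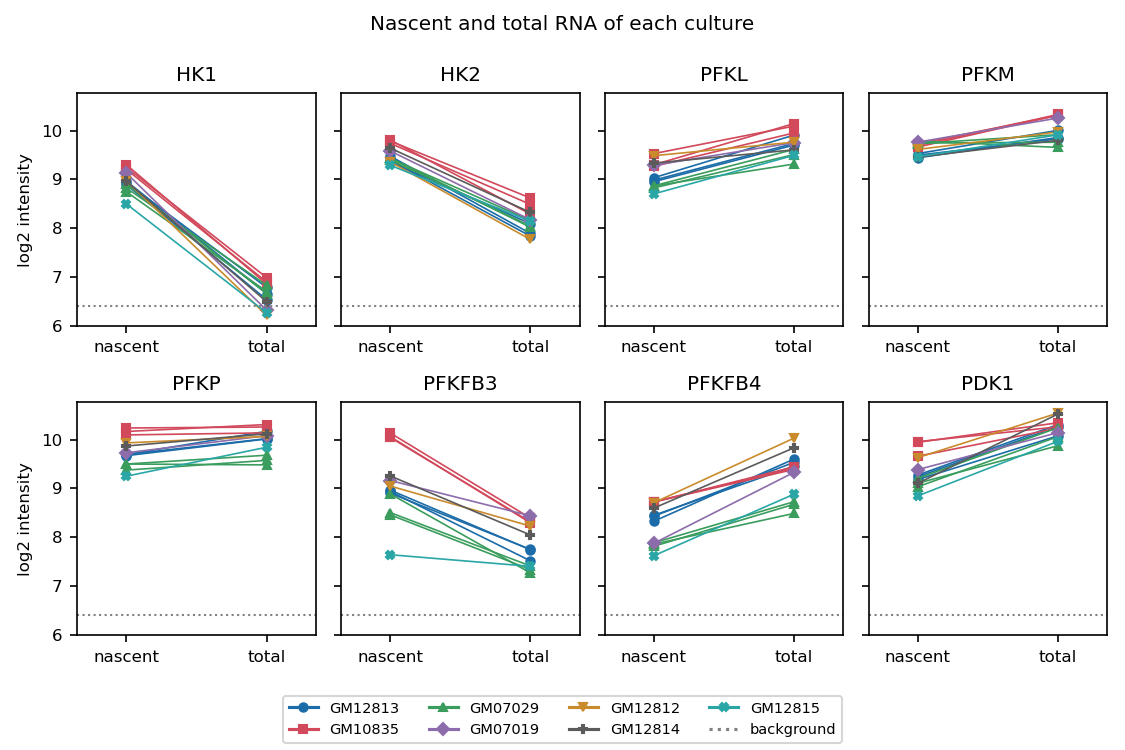
Deposited log2 intensity (vertical axis) of nascent (left) and total RNA (right) for each of the 8 genes, with a line joining the 2 fractions of each of the 13 cultures, coloured by cell line, and the background of 6.40 as a dotted line. HK1, HK2 and PFKFB3 slope down to the right and PFKL, PFKFB4 and PDK1 slope up. The total RNA of HK1 lies close to background.

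The median ratio of the 8 kinases was -1.20 in GM12813, -1.08 in GM10835, -0.84 in GM07029, -1.08 in GM07019, -1.02 in GM12812, -1.14 in GM12814 and -1.17 in GM12815. In each line 3 of the 8 lay above 0, except in GM12815 with 2. HK1 and HK2 lay above 0 and PFKL, PFKM, PFKP, PFKFB4 and PDK1 below it in every line. PFKFB3 changed sides, with a ratio below 0 in GM12815.

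Line means of the 8 genes followed each other closely in some pairs and not in others. Over the 7 lines the Pearson correlations of the 28 pairs ran from -0.14 (PFKM with PFKFB4) to 0.96 (HK1 with PFKFB3) in nascent RNA. In total RNA they ran from -0.25 (HK1 with PFKFB4) to 0.92 (PFKFB4 with PDK1). These are descriptions over 7 points that share their arrays. Among 9534 other clusters with 1 symbol, those whose total RNA was most like each kinase over the 7 lines were CANX and SAFB2 for HK1 (0.99 each), NRIP1 (0.98) and CD53 (0.97) for HK2, RING1 and SSNA1 for PFKL (0.99 each), ACAD8 (1.00) and EIF4A3 (0.99) for PFKM, TAGLN2 (0.98) and SLC1A5 (0.96) for PFKP, CHRAC1 (0.99) and PLOD3 (0.97) for PFKFB3, PHF1 (0.97) and PSRC1 (0.96) for PFKFB4, and FCER1A (0.97) and EHMT1 (0.94) for PDK1. The total RNA of HK1 lay below background in 3 of these lines. Correlations this high are easily reached when so many clusters are searched over 7 points.

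The second comparison asked whether the kinases differed between GM12813, GM10835 and GM07029, the 3 lines with replicate cultures. In total RNA 6 of the 8 kinases were higher in GM10835 than in GM07029, where 29% of all clusters were. In nascent RNA PFKP, PFKFB3, PFKFB4 and PDK1 were higher in GM10835 by 0.71 to 1.46 log2 units as deposited and by 0.46 to 1.21 with each array centred on its median, and 41.6% and 22.8% of all clusters were higher on these scales. PFKM, PFKFB4 and PDK1 differed in the ratio as well, as did 25.4% of all clusters. PFKFB4 and PDK1 did not pass without some single cultures. The cluster shared by SENP1 and PFKM also differed, but with GM10835 as the highest line, where PFKM had it as the lowest. Each line comes from 1 donor, so the tests speak of these 3 lines and their cultures. Where cultures of different lines are said not to overlap, this only describes the values. The share of all clusters without such overlap was not counted.

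In total RNA 6 of the 8 kinases differed between the 3 lines (limma, moderated F test), where 56.3% of all clusters did. HK1 (adjusted p = 0.119) and PDK1 (adjusted p = 0.243) did not pass. GM10835 was higher than GM07029 for HK2, PFKL, PFKM, PFKP, PFKFB3 and PFKFB4, as were 29% of all clusters. The HK2 call of this contrast ended without GM10835 replicate 1 (adjusted p = 0.0800) or 2 (0.0532). GM12813 was higher than GM07029 for 3 of the 8, PFKP, PFKFB3 and PFKFB4 (10.8% of all clusters), and lower than GM10835 for 3, HK2, PFKM and PFKFB3 (25.4% of all clusters). The median of all clusters was 0.10 higher in GM10835 than in GM07029. With each array centred on its median, 6 kinases differed again, where 61.1% of clusters did. GM10835 was then higher than GM07029 for 6 kinases (24.3% of clusters), GM12813 higher than GM07029 for 4, PFKL being added (16%), and GM12813 lower than GM10835 for 3 (21.5%).

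PFKFB3 had the widest range in total RNA on the deposited values, 1.00 against 0.90 for PFKFB4, while with arrays centred PFKFB4 had the wider one, 0.96 against 0.91. PFKFB3 total levels were 7.75, 7.74 and 7.52 in the GM12813 cultures and 8.39, 8.32 and 8.30 in those of GM10835, against 7.27, 7.34 and 7.41 in those of GM07029. The 3 lines did not overlap. GM10835 minus GM07029 was 1.00 (limma, adjusted p = 1.91e-05), GM12813 minus GM10835 -0.67 (adjusted p = 0.000301) and GM12813 minus GM07029 0.33 (adjusted p = 0.0323). The last of these calls ended without any 1 of 7 of the 9 cultures, GM12813 replicate 3 and GM07029 replicate 3 being the exceptions (adjusted p up to 0.115).

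PFKFB4 had total levels of 9.60, 9.54 and 9.46 in GM12813 and 9.44, 9.39 and 9.41 in GM10835, against 8.73, 8.49 and 8.68 in GM07029. GM12813 exceeded GM07029 by 0.90 (limma, adjusted p = 0.000242) and GM10835 exceeded it by 0.78 (adjusted p = 0.000114), with no overlap. GM12813 minus GM10835 was 0.12 and did not pass (adjusted p = 0.408), and with arrays centred it was 0.25 and passed (adjusted p = 0.0200), as 22.8% of clusters did.

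PFKM total RNA stood at 10.01, 9.86 and 9.83 in GM12813 and at 10.31, 10.32 and 10.33 in GM10835, against 9.66, 9.76 and 9.92 in GM07029. GM10835 lay above both other lines without overlap, by 0.54 over GM07029 (limma, adjusted p = 0.00128), while GM12813 and GM07029 overlapped. GM12813 minus GM10835 was -0.42 (adjusted p = 0.00681), and with quantile normalization -0.21, which did not pass (adjusted p = 0.0550). For PFKP, total levels were 10.17, 10.02 and 10.02 in GM12813 and 10.26, 10.31 and 10.14 in GM10835, against 9.48, 9.58 and 9.68 in GM07029. Both other lines lay above GM07029 without overlap, GM12813 by 0.49 (limma, adjusted p = 0.00682) and GM10835 by 0.66 (adjusted p = 0.000364).

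HK2 total RNA was 0.39 higher in GM10835 than in GM07029 (limma, adjusted p = 0.0160) and 0.52 lower in GM12813 than in GM10835 (adjusted p = 0.00379). PFKL total RNA was 0.58 higher in GM10835 than in GM07029 (adjusted p = 0.00158), and neither difference from GM12813 passed.

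In nascent RNA all 8 kinases passed the F test on the deposited values, where 56.7% of clusters did. GM10835 was higher than GM07029 for 7 of them (41.6% of clusters) and GM12813 lower than GM10835 for 8 (32.4%). GM12813 was higher than GM07029 for 2, PFKP and PFKFB4 (12.7% of clusters), and lower for 1, PFKM (5.65%). That PFKP call ended without any 1 of 7 cultures (adjusted p up to 0.123) and that PFKM call without GM12813 replicate 2 (0.0835, and 0.0588 for its F test) or 3 (0.0565). The PFKM difference between GM12813 and GM10835 ended without either of these (0.0988 and 0.0613) or without GM10835 replicate 3 (0.0537). The median of all clusters was itself 0.16 higher in GM10835 than in GM07029, so differences relative to that median are given next. With each array centred, 5 of the 8 passed (55.8% of clusters), and HK1 (adjusted p = 0.109), HK2 (0.134) and PFKL (0.0710) did not. In that scale GM10835 was higher than GM07029 for 5 of the 8, PFKL, PFKP, PFKFB3, PFKFB4 and PDK1 (22.8% of clusters), and lower for 1, PFKM (29.8%). GM12813 was lower than GM10835 for 3, PFKP, PFKFB3 and PDK1 (17% of clusters), higher than GM07029 for 2, PFKFB3 and PFKFB4 (10.1%), and lower than it for 1, PFKM (10.5%).

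Nascent PFKFB3 was the farthest apart, with 8.90, 8.97 and 8.94 in GM12813 and 10.14, 10.05 and 10.06 in GM10835, against 8.89, 8.46 and 8.51 in GM07029. GM10835 exceeded GM07029 by 1.46 on the deposited values and by 1.21 with arrays centred (limma, adjusted p = 2.51e-07). GM12813 was below GM10835 by a difference of -1.15, or -0.96 centred (adjusted p = 2.57e-06).

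Nascent PFKFB4 read 8.33, 8.43 and 8.45 in GM12813 and 8.72, 8.72 and 8.73 in GM10835, against 7.89, 7.86 and 7.81 in GM07029. The 3 lines did not overlap, and GM10835 minus GM07029 was 0.87, or 0.62 centred (limma, adjusted p = 6.37e-05). GM12813 minus GM07029 was 0.55, or 0.49 centred (adjusted p = 0.00131).

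Nascent PDK1 read 9.27, 9.24 and 9.18 in GM12813 and 9.66, 9.96 and 9.95 in GM10835, against 9.21, 9.11 and 9.03 in GM07029. GM10835 stood above both others, by 0.74 over GM07029, or 0.49 centred (limma, adjusted p = 0.000175). PFKP was also highest in GM10835, by 0.71 over GM07029, or 0.46 centred (adjusted p = 0.000257). PFKM went the other way: relative to the median cluster it was lower in GM12813 (by -0.33, adjusted p = 0.00469) and in GM10835 (by -0.31, adjusted p = 0.00194) than in GM07029.

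The nascent/total ratio passed the F test for 3 of the 8 kinases, PFKM, PFKFB4 and PDK1, where 25.4% of all clusters passed. A further 2, PFKP and PFKFB3, had an unadjusted p under 0.05 (adjusted p = 0.0815 and 0.0519). The median range over the 3 lines was 0.35 for the 8 kinases, against 0.34 for all clusters. Between pairs of lines, 1 kinase was lower in GM12813 than in GM07029 (0.889% of clusters), 1 higher and 1 lower in GM10835 than in GM07029 (7.64% and 6.23%), and 3 lower in GM12813 than in GM10835 (10.4%). Without 1 culture, 1 to 4 kinases passed the F test, PFKM each time (adjusted p up to 0.0206). The PDK1 F test ended without GM12813 replicate 2 or 3 or GM10835 replicate 2 or 3 (adjusted p up to 0.0887). That of PFKFB4 ended without any 1 of the GM12813 or GM10835 cultures (adjusted p up to 0.123). It kept its call in 2 of 6 alternatives of the processing (adjusted p up to 0.101).

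PFKM had the widest range, 0.67 (limma, adjusted p = 0.00415). Its ratios were -1.22, -1.20 and -1.21 in the GM12813 cultures and -1.40, -1.51 and -1.46 in those of GM10835, against -0.67, -0.79 and -0.90 in those of GM07029. The 3 lines did not overlap, and GM10835 minus GM07029 was -0.67 (adjusted p = 0.00424). GM12813 minus GM07029 was -0.42 (adjusted p = 0.0423), a call that ended without any 1 of 8 of the 9 cultures (highest adjusted p = 0.163). The cluster shared by SENP1 and PFKM also passed the F test (range 0.575, limma, adjusted p = 0.0169), but with GM10835 as the highest line, at -0.19. Its total RNA was lowest in GM10835, at 9.21, against 9.93 in GM12813 and 9.71 in GM07029.

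PDK1 had ratios of -1.78, -1.81 and -1.77 in GM12813 and -1.39, -1.16 and -1.22 in GM10835, against -1.84, -1.54 and -1.75 in GM07029. GM10835 was the high line, with GM12813 minus GM10835 at -0.53 (limma, adjusted p = 0.0114) and GM10835 minus GM07029 at 0.45 (adjusted p = 0.0359). GM12813 and GM07029 overlapped. Of the 9 cultures, leaving out GM10835 replicate 3 alone ended the first of these calls (adjusted p = 0.0539). The second ended without any 1 of 6 cultures (adjusted p up to 0.138).

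PFKFB4 ratios were -2.02, -1.89 and -1.89 in GM12813 and -1.54, -1.52 and -1.50 in GM10835, against -1.65, -1.40 and -1.58 in GM07029. GM12813 lay below both other lines without overlap. GM12813 minus GM10835 was -0.41 (limma, adjusted p = 0.0280) and GM12813 minus GM07029 -0.39 (adjusted p = 0.0755, not passed). The first call ended without any 1 of the GM12813 or GM10835 cultures (adjusted p up to 0.102). PFKFB3 was lower in GM12813 than in GM10835, at -0.45 (adjusted p = 0.0361), a call that ended without any 1 of the same 6 cultures (adjusted p up to 0.111).

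**Figure D3:**
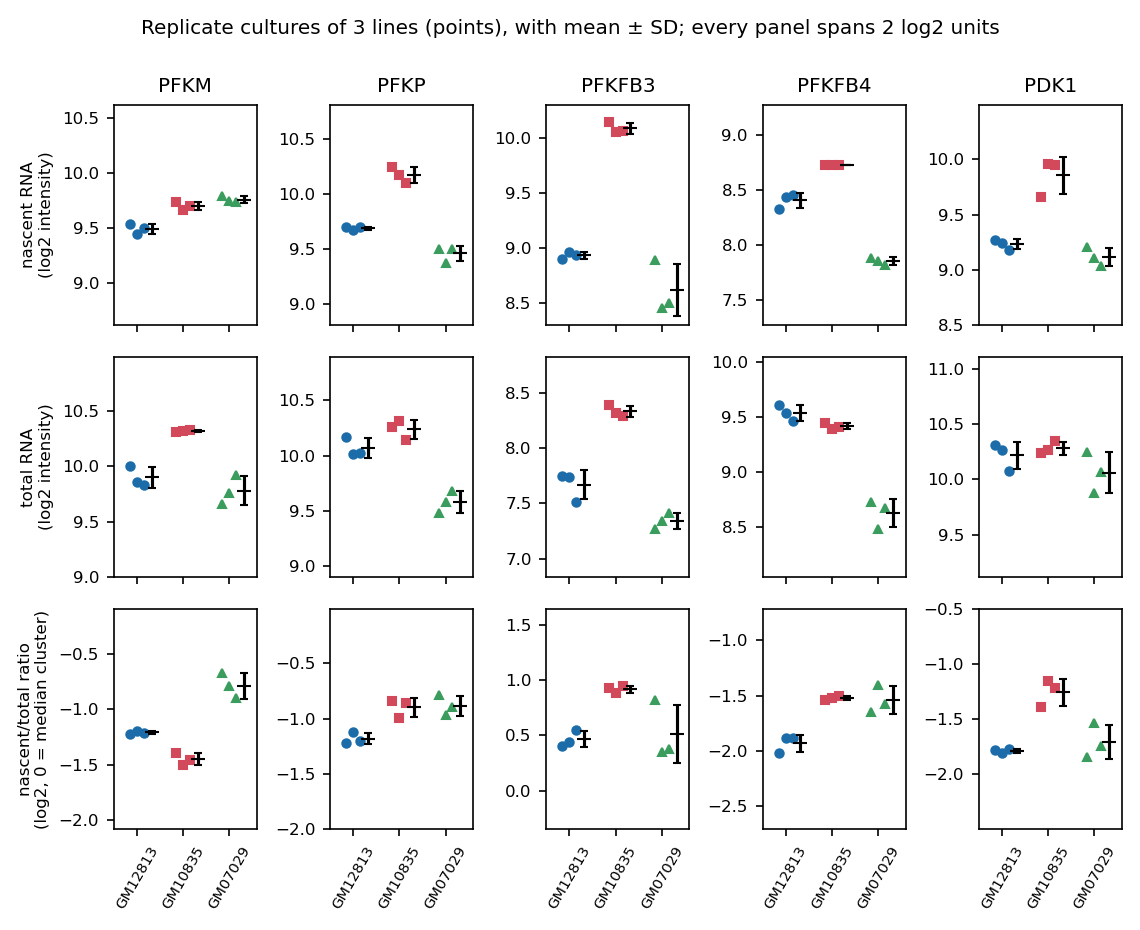
Nascent RNA (top), total RNA (middle) and centred nascent/total ratio (bottom), all in log2 units, of PFKM, PFKP, PFKFB3, PFKFB4 and PDK1 in the 3 cultures each of GM12813, GM10835 and GM07029, with mean and SD. GM10835 is the highest line in nascent PFKP, PFKFB3, PFKFB4 and PDK1. For PFKM it is the highest in total RNA and the lowest in the ratio.

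Other genes of glucose use were set beside the kinases over the 7 lines. Of 109 such genes in 11 lists, 71 could be tested: 17 had a higher ratio than the median cluster, 40 a lower one and 14 did not pass, with a median of -0.50. Of all 14167 clusters, 31.7% were higher and 31.7% lower, which are the shares to set beside the counts of each list. Enzymes of glycolysis other than hexokinase and phosphofructokinase were mostly low, while transporters and upstream regulators were mixed. HK3, ENO3, EPAS1 and MLXIPL, 4 of the 71, had a mean total RNA below background and passed the filter through their nascent RNA, so that their ratios are bounds and none is printed. EPAS1 was the 1 of these 4 counted as higher, and with total RNA raised to the background none of them passed. These directions depend on the centring. On uncentred ratios the medians of the 8 kinases (-0.33), of the other enzymes of glycolysis (-0.29) and of the side routes (-0.19) stayed below 0, whereas those of the 71 genes together (0.27), the pyruvate dehydrogenase complex (0.13), the pentose phosphate pathway (0.13) and the hypoxia list (0.64) lay above it. After a loess fit of the ratio on signal was subtracted, the median of the other enzymes of glycolysis was -0.51, above those of the side routes (-0.75), the pyruvate dehydrogenase complex (-0.64) and the pentose phosphate pathway (-0.62), and that of the 8 kinases was -0.96.

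Of 13 tested other enzymes of glycolysis, from the isomerase GPI to lactate dehydrogenase, 9 were lower and 0 higher, with a median of -1.07. The aldolase ALDOC stood at -2.01 ± 0.21 (SD, n = 7 lines) and the enolase ENO2 at -1.66 ± 0.15, while PGK1 (0.01 ± 0.44) did not pass. PGK1 passed as higher, at 0.63, with the trend of the ratio on signal removed (limma, adjusted p = 0.00177). Of 9 genes of glycogen and hexose phosphate side routes, 8 were lower and 1 higher (median -0.96). The mannose phosphate isomerase MPI stood at -1.55 and the phosphoglucomutase PGM2 at -1.21, against -0.45 for the glycogen phosphorylase PYGB and 0.26 for GFPT1, which opens the hexosamine route. The pentose phosphate pathway had 5 lower and 1 higher of 6 (median -0.65), with PGD at -1.0, RPIA at -0.91, RPE at -0.50 and H6PD, its enzyme of the endoplasmic reticulum, at 0.58. The total RNA of H6PD lay below background in 2 of 13 cultures, and with it raised to the background the ratio was at least 0.54.

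Around PDK1, its relative PDK3 was also low (-1.57 ± 0.19, SD, n = 7 lines; limma, adjusted p = 4.83e-07), while PDP1, a phosphatase that reverses these kinases, was high (1.00 ± 0.22; adjusted p = 4.21e-06). Of 7 genes of the pyruvate dehydrogenase complex and of pyruvate entry, 5 were lower and 1 higher (median -0.64). The pyruvate carrier subunit MPC2 stood at -1.08 and the complex's acetyltransferase DLAT at -0.86. PDHB stood at 0.36 and PDHA1, the subunit that PDK1 phosphorylates, at -0.05, which did not pass. TIGAR, a phosphatase that lowers fructose 2,6-bisphosphate, was high at 0.94 ± 0.22, and was the 1 tested gene beside PFKFB3 and PFKFB4 in its list. FBP1 and FBP2, which undo the phosphofructokinase step, were both under background.

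Upstream of HK1 and HK2, the glucose transporter SLC2A1 was higher (0.75 ± 0.17) and BSG, a partner of lactate transporters, lower (-0.53), while SLC2A8 stood at 0.22 and did not pass (limma, adjusted p = 0.0543), close to the threshold. It passed with no filter on clusters (adjusted p = 0.0372), with a filter on the background in each fraction (0.0277) and without GM10835 (0.0433) or GM12815 (0.0365). ADPGK, which phosphorylates glucose with ADP, was lower at -0.77. Of 15 tested genes of the hypoxia inducible factor and its other targets, 5 were higher, EPAS1 among them, and 6 lower (median -0.14). Of all clusters, 31.7% were higher and 31.7% lower. VHL, which marks the factor for destruction, stood at 2.01 ± 0.47 and EGLN2, one of its oxygen sensors, at 0.61, against -1.32 and -1.04 for the collagen hydroxylases P4HA1 and P4HA2. Of 13 upstream regulators, 6 were higher and 4 lower (median 0.12), beside the same shares of all clusters. TXNIP, which limits glucose uptake, stood at 1.00 and MYC at 0.70, against -1.04 for the kinase AKT2 and -0.81 for PRKAA1, a catalytic subunit of the energy sensor AMPK.

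Between the 3 lines, 25.4% of all clusters passed the F test of the ratio. So did 4 of 7 genes of the pyruvate dehydrogenase complex and pyruvate entry and 1 of 13 other enzymes of glycolysis. In the pentose phosphate pathway 2 of 6 passed, in the side routes 4 of 9, in the hypoxia list 4 of 15 and among upstream regulators 3 of 13. None passed in the other lists. Picked as the widest ranges past the threshold among these genes were those of P4HA2 and VHL. P4HA2 had ratios of -1.18 in GM12813, -1.69 in GM10835 and -0.81 in GM07029 (limma, adjusted p = 0.00743). VHL stood at 1.88 in GM12813, 1.90 in GM10835 and 1.07 in GM07029 (adjusted p = 0.00843).

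**Figure D4:**
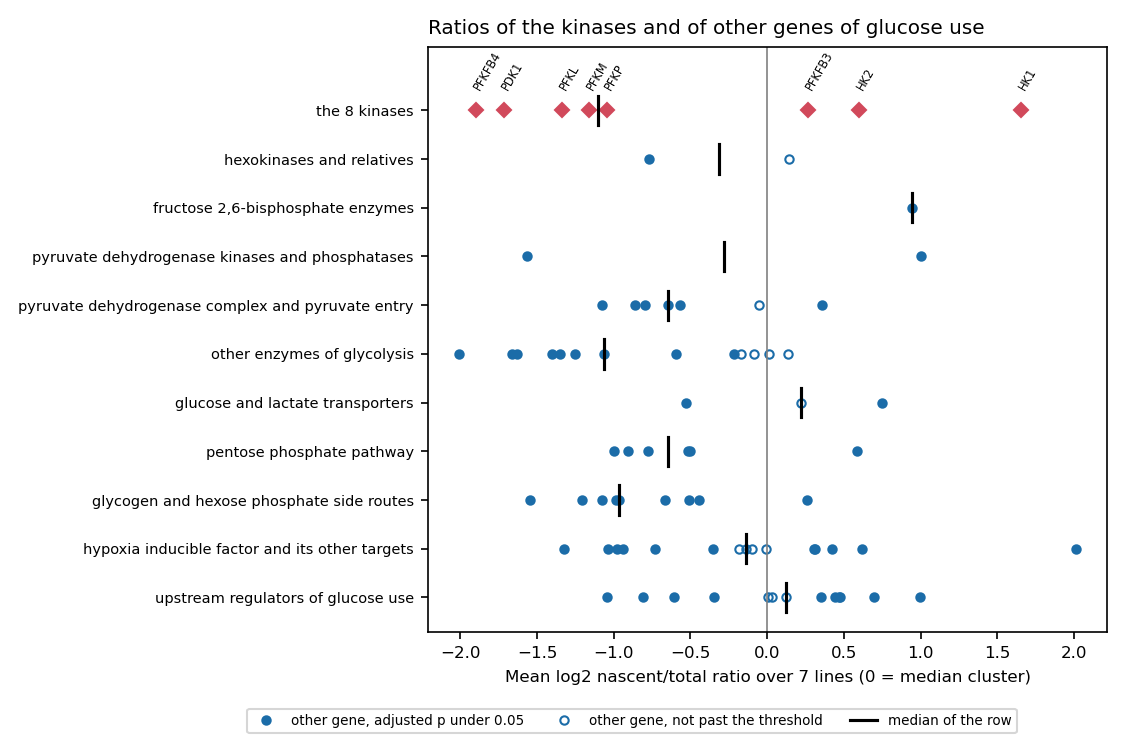
Mean centred log2 nascent/total ratio over 7 lines (horizontal axis, 0 is the median cluster) of the 8 kinases (diamonds, named) and of the 71 other tested genes of glucose use by list (circles, filled where past the threshold), with a bar at each median. The kinases run from -1.90 (PFKFB4) to 1.65 (HK1), and the other enzymes of glycolysis have a median of -1.07. The points of HK3, ENO3, EPAS1 and MLXIPL rest on total RNA below background.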

How the data were processed

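The values, as deposited by the authors, were log2 intensities per gene: 21788 transcript clusters on 32 human exon arrays. Cultures were given 4sU, nascent RNA was separated from total RNA and ribosomal RNA was reduced before labelling, per the labels' protocols. Affymetrix Power Tools and build hg18 are named, per the submitters' processing notes. How probes were summarized, and whether the fractions were normalized jointly, is not given in the sources used here. A normalization of each fraction by itself would remove overall differences between lines in a level.

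Symbols came from the platform's table: 14405 clusters had 1 symbol, and 14377 of these were updated through a RefSeq table. As background, the 95th percentile over the means of 216 olfactory receptor clusters was taken. The 14167 clusters (65.0%) with a mean above it were tested. Duplicates were averaged, cultures centred, and cultures of a line averaged for the test over 7 lines (limma 3.58.1 in R 4.3.3, trended variance, two-sided, mean against 0). The 3 lines were compared over 9 cultures by limma's moderated F test and contrasts. Benjamini-Hochberg adjustment ran over all 14167 clusters, with a threshold of 0.05. Isozymes were compared by exact sign-flip tests over lines.

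The 8 genes and the lists were chosen with earlier results of these data known. Named are the 8 genes, from each list the tested genes with the 2 highest and 2 lowest mean ratios, the 2 list genes with the widest range past the threshold between 3 lines, and the 2 clusters most like each kinase in total RNA. The steps were tested on simulated data. Cultures with the same replicate number did not deviate together (correlations of -0.43 to 0.20 in the ratio, 2 of 9 over 0.1), so the numbers were not used as pairs. The number of arrays limits the precision. Alternatives covered centring, quantile normalization, the filter, duplicates, the trend of the ratio with signal, all 13 cultures, the replicate block, total RNA below background raised to it, and leaving out lines and cultures.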

Additional observations from a re-analysis of the deposited data

Results flagged for a closer look

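In 4 of the 8 kinases the nascent/total ratio differed between 2 lines by a test of the difference itself (limma contrast, adjusted over 14167 clusters). Of all 14167 clusters, 126 (0.889%) were lower and 696 higher in GM12813 than in GM07029. In GM10835, 6.23% were lower and 7.64% higher than in GM07029. In GM12813, 1475 (10.4%) were lower and 1800 higher than in GM10835. The share of clusters past any of these contrasts was not counted, and 25.4% of clusters passed the F test. PFKM was lower in GM12813 than in GM07029, by -0.42 log2 units, and lower in GM10835 than in GM07029, by -0.67. In the cluster shared by SENP1 and PFKM, GM10835 instead had the highest ratio of the 3 lines, at -0.19. PFKFB3 was lower in GM12813 than in GM10835, by -0.45. Its F test over the 3 lines did not pass (adjusted p = 0.0519). PFKFB4 was lower in GM12813 than in GM10835, by -0.41. PDK1 was higher in GM10835 than in GM07029, by 0.45, and lower in GM12813 than in GM10835, by -0.53. The PFKM call of GM12813 minus GM07029, the PFKFB3 and PFKFB4 calls and the PDK1 call of GM10835 minus GM07029 each ended without any 1 of 6 or more of the 9 cultures (adjusted p up to 0.163).

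On the deposited values GM10835 minus GM07029 was -0.06 in nascent PFKM (adjusted p = 0.453) and 0.54 in total PFKM. With arrays centred it was -0.31 in nascent PFKM (adjusted p = 0.00194) and 0.46 in total PFKM. For PDK1 it was 0.74 in nascent and 0.22 in total RNA as deposited, and 0.49 and 0.14 with arrays centred, and the total RNA did not pass on either scale (adjusted p = 0.138 and 0.235). In none of 24 sets of 7 line means (nascent, total and ratio of each kinase) was a single line farther from the rest than Dixon's criterion allows.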

How the results depend on the processing

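Over 7 lines, HK1, HK2, PFKL, PFKM, PFKP, PFKFB4 and PDK1 kept their direction and their call under each of 9 alternatives and without any 1 line. PFKFB3 passed without centring (1.04), with 13 cultures and the line as a random block (0.32) and without GM12815 (0.38), so that 2 to 3 kinases were higher when a line was left out. Without centring 11639 clusters were higher and 762 lower, since the median cluster then stood at 0.77. In that setting the ratios of ADPGK (0.0032), PDHA1 (0.72), BSG (0.25), RPE (0.27) and PYGB (0.33) turned positive. All of these but ADPGK (limma, adjusted p = 0.976) passed as higher. The lower calls of DLAT (-0.087, adjusted p = 0.455), RPIA (-0.13, 0.215) and PRKAA1 (-0.036, 0.763) ended. PGK1 (0.79), SLC2A8 (0.99), HK3 and ENO3 also passed as higher, HK3 and ENO3 with a mean total RNA below background. With the signal trend removed PDHA1 was also positive but did not pass (0.027, limma, adjusted p = 0.790). It ran from -0.097 to 0.016 when a line was left out. PGK1 passed as higher with the signal trend removed (0.63), turned negative with 13 cultures (-0.033) and ran from -0.12 to 0.11 when a line was left out. Total RNA below background was raised to it in an alternative chosen after seeing the data. It moved no call of the 8 kinases, and ENO3, whose total RNA was mostly below background, turned negative (-0.057). Without 1 line, HK1 minus HK2 was 1.00 to 1.10, PFKL minus PFKP -0.33 to -0.23 and PFKFB3 minus PFKFB4 2.12 to 2.28. Their unadjusted exact permutation p was then the smallest that 6 lines allow. Adjusted over 5 pairs it was 0.0521, which did not pass. Beside the larger p of the other pairs, the smallest p of 6 lines adjusts to this value, so that no size of difference could have passed. Between 3 lines, 5 kinases differed in the ratio with quantile normalization, and 5 in nascent RNA with quantile normalization or centred arrays. Clusters that differed in the ratio numbered 2012 with no filter and 2142 with first arrays only. Without 1 culture, 1 to 4 kinases and 1808 to 5065 clusters differed in the ratio. With the replicate block, 2 kinases (PFKM, adjusted p = 0.0157, and PDK1, 0.0384) and 2458 clusters differed in the ratio. It ended the calls in the ratio of PFKM (GM12813 minus GM07029, adjusted p = 0.0913), PFKFB3 (0.0601), PFKFB4 (0.0710 over 3 lines, 0.0522 for GM12813 minus GM10835) and PDK1 (GM10835 minus GM07029, 0.0622). It also ended those of PFKFB3 in total RNA (0.0734) and PFKP in nascent RNA (0.0733), both GM12813 minus GM07029, and no other call of the 8 kinases. The same PFKM and PFKFB3 ratio calls also ended without centring, with no filter and with first arrays only (adjusted p = 0.0536 to 0.130). That of PFKFB4 ended without centring (0.0515) and with no filter (0.0667), and that of PDK1 with no filter (0.0628) and first arrays only (0.0689). The cause of these changes was not tested. Of 1032 values of the 8 kinases under an alternative, 901 kept direction and call, 123 lost the call, 8 gained one and 0 turned. The 123 include these isozyme differences without 1 line, which could not pass with 6 lines. No kinase had a second cluster of its own, so that alternative was not run.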
